A study of Arabidopsis thaliana with 6 samples.

Results

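The ECT genes of Arabidopsis thaliana encode proteins with a YTH domain, the fold that binds N6-methyladenosine (m6A) in RNA. The members described here are ECT1 to ECT10, taken by gene identifier from the family's numbering: 10 genes of the 36917 in the table. A methyltransferase complex (the writers) places m6A on mRNA, demethylases of the ALKBH family (the erasers) can remove it, and YTH proteins (the readers) recognise it and influence what becomes of the transcript. In Arabidopsis, ECT2, ECT3 and ECT4 are best known for the timing of leaf emergence and for trichome branching, and they act mainly in the cytoplasm of young, dividing tissue.

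Expression was measured by RNA sequencing in whole seedlings of the Col-0 accession on day 4. Seeds were stratified for 3 days, given 2 h of white light at 100 µmol photons per square metre and second, kept in darkness for 3 days and then in light for 1 day. The 2 groups of 3 libraries were wild type and bbx14-1, a line in the same accession named for the B-box transcription factor gene BBX14. The labels do not describe the lesion. They also do not say whether samples of a group were grown separately, so p-values here reflect variation among samples that could be partly technical. The values are normalized counts, in which each library's reads per gene were scaled by a factor of its own. Recovered depth was 20939505 to 32621183 reads per library, of which plastid genes took 49.6% to 56.7%. A floor of 3 reads equals 2.40 to 3.77 normalized counts and covers counting error only. Over all genes, bbx14-1 replicate 3 differed most from the other libraries of its group (chi-square per degree of freedom 26.6 and 30.0, against 7.78 to 14.7 for the other pairs within groups). That statistic used all reads, plastid genes included. The plastid share was 49.6% in bbx14-1 replicate 3, against 54.6% and 56.7% in replicates 1 and 2, and its part in the statistic was not tested.

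Expression of BBX14 itself (AT1G68520) was examined under the label. Its normalized counts were 540, 683 and 517 in wild type, against 649, 761 and 892 under the bbx14-1 label. The groups overlapped, and BBX14 was not lower under the bbx14-1 label (log2 fold change 0.40, standard error 0.13; limma, Benjamini-Hochberg adjusted p = 0.0726). It was called higher when wild type replicate 2 was left out (0.53, adjusted p by limma 0.0199). The same held when bbx14-1 replicate 1 was left out (0.52, adjusted p by limma 0.0306). As the lesion is not described, the count of this gene cannot decide whether the line carries one. The group is therefore written as the libraries labelled bbx14-1 throughout.

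Markers of green tissue were abundant: the 4 photosynthetic markers summed to 487821 to 530185 normalized counts in wild type and 460319 to 588031 under the bbx14-1 label, with 0 of 4 called. The 5 root markers summed to 1656 to 1880 and 1481 to 1661, with none of those tested called, and most of that sum was the aquaporin gene TIP2;3. Within that list WOX5 was near or under the floor and did not enter the test. TIP2;3 was lower under the bbx14-1 label without overlap (1388 against 1143 on average), and COBL9 was higher without overlap (24.2 against 58.5). Of the 5 markers of shoot meristem and primordia, the stem cell genes CLV3 and WUS were at or near 0 and did not enter the test. STM, ANT and GRF5 averaged 38.1, 65.6 and 47.6 in wild type. They averaged 43.1, 70.5 and 39.3 under the bbx14-1 label, and none of them was called. The 5 markers of dividing cells summed to 569 to 651 and 699 to 746, without overlap and with 0 of 5 called. Among them CYCD3;1 (194 against 271 on average) and CYCB1;1 (26.3 against 38.9) were higher without overlap. The groups overlapped for CYCB1;2, CDKB2;1 and KNOLLE. The 2 trichome markers summed to 49.0 to 57.2 and 48.4 to 102, with overlapping groups. Most of that sum was GL2 (51.8 against 74.6 on average), which was not called. GL1 was near or under the floor and did not enter the test. The 3 seed reserve markers summed to 107 to 557 and 49.6 to 62.3, with CRC called lower, and the 557 came from wild type replicate 1.

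All 10 ECT proteins share a C-terminal YTH region, whose binding pocket is lined by tryptophans. The coding bases of the pocket's last pair of tryptophans are shown because these residues line the pocket and the pair is present in all 10 members; ECT11 holds such a pair too. They were read from the longest annotated coding sequence of each gene (TAIR10.1, annotation by RefSeq), 5′ to 3′, as 6 codons with the tryptophan codons in capitals.
ECT1: TGGcagcaagataaaTGG
ECT2: TGGcagcaagataagTGG
ECT3: TGGcaacaggacaaaTGG
ECT4: TGGcaacaggataaaTGG
ECT5: TGGcaacaagataaaTGG
ECT6: TGGcagcaagacaaaTGG
ECT7: TGGcagcaagacaaaTGG
ECT8: TGGcaacaagataagTGG
ECT9: TGGcaacaggatagaTGG
ECT10: TGGcagcaagacaggTGG

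The tryptophan pair was found once in each of the 10 coding sequences. In ECT2 it lay at codons 521 and 526 of 667, and in ECT4 at codons 493 and 498 of 605. ECT6 and ECT7 carried the same 18 bases, at codons 353 and 358 of 595 and at codons 404 and 409 of 639. The pocket's first tryptophan lies upstream. The 7 codons that end with it are shown for the pairs of members that were closest in sequence, with its codon in capitals.
ECT2: agcattaaatataatgttTGG
ECT4: agcatcaaatataatgtaTGG
ECT6: agcatcaaatatggtgtcTGG
ECT7: agcatcaaatacaatgttTGG

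Identity was computed over the encoded YTH region, from 20 residues before the upstream tryptophan to 80 after the last one. ECT2 and ECT4 were the closest pair, with 150 of 163 aligned residues identical (92.0%). ECT6 and ECT7 followed, with 150 of 167 (89.8%). ECT5 was closest to ECT9 (77.9%), and ECT1 to ECT3 (79.1%). ECT8 and ECT10 were also nearest to ECT5 (74.8% and 72.4%), and the lowest identity between members was that of ECT3 and ECT10 (58.9%). Despite this likeness no 50-base window of the exons of any member (1548 to 3025 windows per gene) occurred elsewhere in the genome.

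The genes lie on chromosomes 1, 3 and 5. ECT2 (AT3G13460) spans chr3:4384563-4388592 on the minus strand in 9 exon blocks, and ECT4 (AT1G55500) spans chr1:20719473-20722856 on the plus strand in 7. ECT6 (AT3G17330) lies at chr3:5916940-5920281 and ECT7 (AT1G48110) at chr1:17769938-17773518, both on the minus strand. None of ECT1, ECT2, ECT4 and ECT6 overlaps another annotated gene. ECT8 overlaps NUA on the opposite strand over 709 bases, and ECT5 overlaps the non-coding AT3G13061 over 786 bases. Shorter overlaps on the opposite strand are those of ECT3 with EXO70E2 (50 bases), ECT7 with AT1G48100 (14) and ECT9 with LTPG1 (23). ECT10 overlaps AT5G58200 on the same strand over 56 bases. The libraries were directional, but the strand setting of the counting is not given in the sources used here, so reads of such partners cannot be told apart with certainty. NUA was close to level (-0.04 on the log2 scale; limma, adjusted p = 0.89), and AT3G13061 had 0 normalized counts in both groups. EXO70E2, AT1G48100, LTPG1 and AT5G58200 were at log2 fold changes of -0.19, -1.28, 0.04 and 0.22, and none of them was called.

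To compare the members with each other, counts were divided by the length of the exons. ECT2 was by far the most abundant, at 2249 ± 182 normalized counts per kb in wild type, against 1749 ± 157 under the bbx14-1 label (SD, n = 3). It made up 59.8% ± 1.02 of the family's summed level per kb in wild type and 57.3% ± 1.74 under the bbx14-1 label (SD, n = 3). ECT3 came next, at 292 ± 9.79 and 250.4 ± 17.2 per kb, so that ECT2 stood 7.33-fold above it over the 6 libraries.

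**Figure D1:**
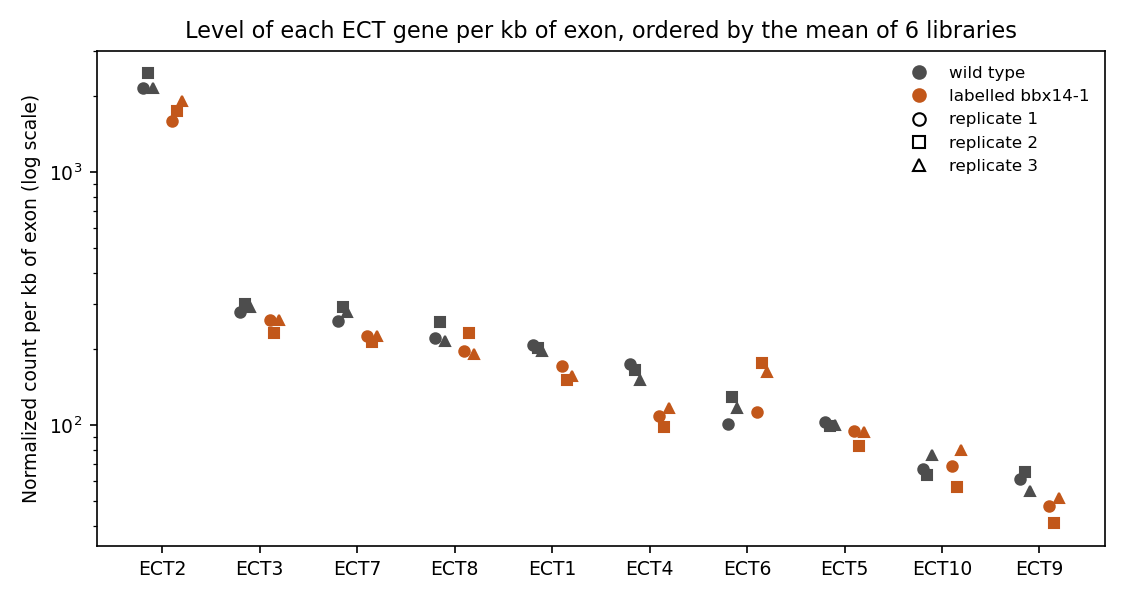
Normalized count per kb of exon (log axis) for each ECT gene, ordered by the mean over the 6 libraries, with 3 wild-type libraries in grey and 3 libraries labelled bbx14-1 in orange. ECT2 is at 1594 per kb or more in every library, and the highest value of any other member is 300.0 per kb.

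Behind ECT2 and ECT3 followed ECT7, ECT8, ECT1, ECT4, ECT6, ECT5, ECT10 and ECT9, the last at 60.6 ± 5.19 per kb in wild type and 46.8 ± 5.43 under the bbx14-1 label (SD, n = 3). Of the 9 neighbouring pairs in that order, 5 kept it in all 6 libraries: ECT2 over ECT3, ECT3 over ECT7, ECT8 over ECT1, ECT1 over ECT4, and ECT5 over ECT10. Each of these had an exact sign-flip permutation p of 0.03125 (two-sided, n = 6 libraries), which is the smallest that 6 libraries can give. Adjusted over the 9 pairs it was 0.0563, so no neighbouring pair passed the threshold of 0.05. With only 5 of 9 pairs at that smallest p, none could pass after adjustment, whatever the size of its ratio. The pairs were also set by the order of the means over the same 6 libraries. ECT7 and ECT8, ECT6 and ECT5, and ECT10 and ECT9 changed places in 1 library each. The order also depended on the length used: per kb of coding sequence ECT8 and ECT7 stood ahead of ECT3, and ECT10 was last in place of ECT9. With the longest transcript ECT8 stood ahead of ECT7. ECT2 was first with all 3 lengths. ECT4 and ECT6 had no order common to the 6 libraries (exact permutation p = 1, ECT4 higher in 3 of 6 libraries). ECT4 was above ECT6 in all 3 wild-type libraries and below it in all 3 libraries labelled bbx14-1. The test pooled both groups, so it does not address their order within a group.

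The comparison between genotypes asks which genes differ between bbx14-1 and wild type after the move from darkness to light. The family was selected on measured values of this very comparison, since it was put forward with the log2 fold changes known. The members' differences are therefore given as a description, with no p-value printed for any of them, and support nothing further. A gene was called where limma's adjusted p over 19003 tested genes was under 0.05, and all 10 members passed the filter of a mean of at least 10 normalized counts. ECT2 and ECT4, 2 of 10 members, were called lower under the bbx14-1 label, and 0 members were called higher by limma or by voom. At an unadjusted p under 0.05, 4 members were lower (ECT1, ECT2, ECT4 and ECT7) and 1 was higher (ECT6). Of all genes tested 4.65% were called, 2.14% lower and 2.51% higher, and 16.7% had an unadjusted p under 0.05. Nothing is read from the members' share, since this comparison chose them. In whole seedlings, fewer cells that express a gene and less of its RNA per cell cannot be told apart.

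ECT4, the closest relative of ECT2, had 496, 472 and 428 normalized counts in wild type, against 309, 279 and 332 under the bbx14-1 label. The groups were well apart, and its log2 fold change of -0.60 (standard error 0.13), a ratio of 0.659, was the most negative of the family. It was called with each library left out in turn, at log2 fold changes from -0.66 to -0.54.

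ECT2, the best studied reader of the family, had 6619, 7597 and 6627 normalized counts in wild type, against 4924, 5394 and 5893 under the bbx14-1 label. No library of one group reached the other, with a log2 fold change of -0.36 (standard error 0.09), a ratio of 0.777. The call depended on which libraries entered: it was lost when replicate 1 (-0.40) or replicate 2 (-0.30) of wild type was left out, and likewise replicate 1 of bbx14-1 (-0.30). Without the variance trend neither ECT2 nor ECT4 was called, and the calls over all genes went from 883 to 28.

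ECT3, which acts redundantly with ECT2 in leaf formation, had 599.6, 640.6 and 627 normalized counts in wild type, against 556, 492 and 556 under the bbx14-1 label (log2 fold change -0.22, standard error 0.11). ECT1, linked to salicylic acid responses, had 391, 383 and 370.1 against 323, 286 and 296 (log2 fold change -0.34, standard error 0.13). In both genes each library labelled bbx14-1 lay below every wild-type library, and neither was called.

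**Figure D2:**
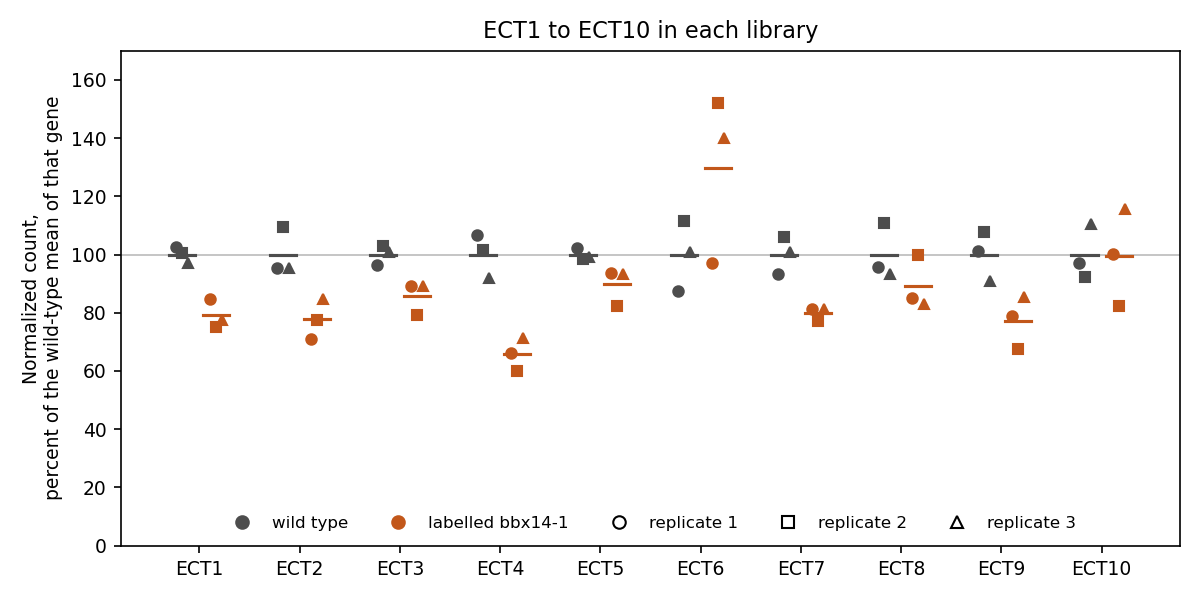
Normalized count of each ECT gene in each library as a percent of that gene's wild-type mean, with wild type in grey, the libraries labelled bbx14-1 in orange, horizontal lines for group means and symbols for replicate numbers. The groups are apart for ECT1, ECT2, ECT3, ECT4, ECT5, ECT7 and ECT9, and ECT6 is the 1 member whose mean is higher under the bbx14-1 label.

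ECT7 had 782, 888 and 845 normalized counts in wild type, against 680.4, 648 and 680.3 under the bbx14-1 label (log2 fold change -0.32, standard error 0.10). Its nearest relative ECT6 had 257, 329 and 298 against 286, 448 and 412 (log2 fold change 0.36, standard error 0.16). ECT6 was thus the 1 member of 10 with a positive difference. Its groups overlapped, with bbx14-1 replicate 1 inside the wild-type range, and it was not called. Without that library ECT6 was called higher (log2 fold change 0.55). Without bbx14-1 replicate 2 its log2 fold change was 0.23 and without wild type replicate 1 it was 0.26, not called in either case. ECT7 was called in no setting tried.

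The ratio of ECT6 to ECT7, each per kb of exon, was taken within each library. It was 0.393, 0.443 and 0.420 in wild type, against 0.502, 0.826 and 0.723 under the bbx14-1 label. All 3 ratios under the bbx14-1 label were above the wild-type range, and their spread was wide, with an SD of 0.165 against 0.0249. This was not particular to that pair. The ratio of ECT6 to the more distant ECT2 was 0.0473, 0.0527 and 0.0546 in wild type, against 0.0707, 0.101 and 0.0851. In the other close pair, the ratio of ECT2 to ECT4 was 12.3, 14.8 and 14.3 in wild type, against 14.7, 17.8 and 16.4 under the bbx14-1 label, and these groups overlapped.

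**Figure D3:**
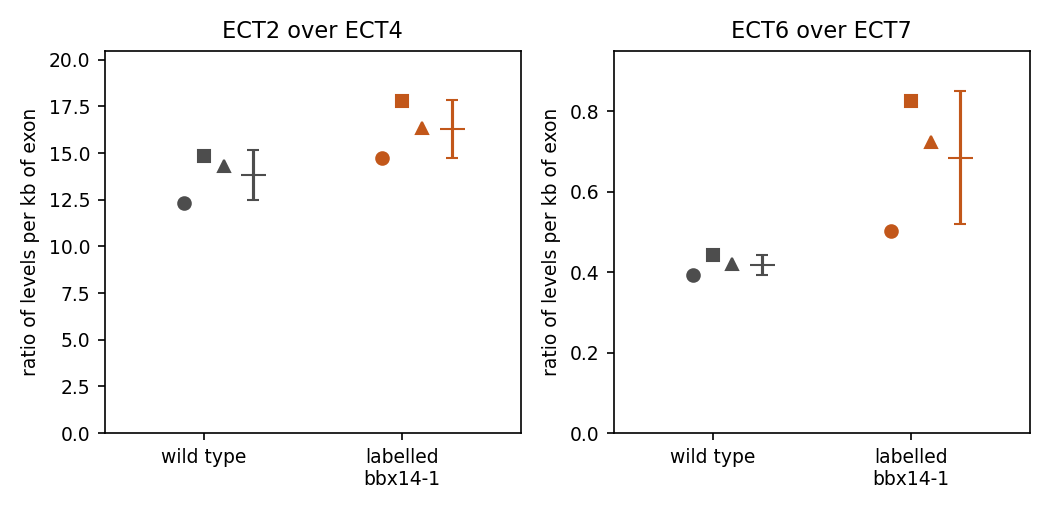
Ratio of levels per kb of exon within each library for the 2 closest pairs, ECT2 over ECT4 (left) and ECT6 over ECT7 (right), with points for libraries, symbols for replicate numbers, and bars for mean ± SD (n = 3). The ratio of ECT6 to ECT7 is at most 0.443 in wild type and at least 0.502 under the bbx14-1 label.

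ECT8, linked to salt and abscisic acid responses, had 768, 887 and 748 normalized counts in wild type, against 682, 799.6 and 664 under the bbx14-1 label (log2 fold change -0.16, standard error 0.11). Its groups overlapped. The remaining members belong to the branch of ECT5. ECT5 had 335, 323 and 325 against 307, 269.8 and 305 (log2 fold change -0.16, standard error 0.13), a small difference with the groups apart. ECT9 had 167, 178 and 150.3 against 130.3, 112 and 141 (log2 fold change -0.37, standard error 0.18), also apart but with a wide error at this low level. ECT10 had 129.5, 123 and 147 against 133.5, 109.6 and 154 (log2 fold change -0.02, standard error 0.19), with the wild-type range inside that of the libraries labelled bbx14-1. None of these 4 genes was called.

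Across the family, 9 of 10 members had a negative log2 fold change, with a median of -0.27, against 9405 of 19003 and a median of 0.0029 over all genes tested. The groups did not overlap for 7 members, all lower under the bbx14-1 label, where 21% of all genes tested had groups that did not overlap, 10.6% lower and 10.4% higher. Summed per kb, the family stood at 3617, 4034 and 3628 normalized counts in wild type, against 2878, 3027 and 3245 under the bbx14-1 label. Without ECT2 the sums were 1474, 1575 and 1483 against 1285, 1281 and 1337, and both totals were lower in all 3 libraries labelled bbx14-1 than in any wild-type library. The markers of dividing cells, where ECT2, ECT3 and ECT4 are best known, were higher in sum under the bbx14-1 label (given above). Only CYCD3;1 and CYCB1;1 among them had groups apart, and the part of dividing cells in these differences was not tested.

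**Figure D4:**
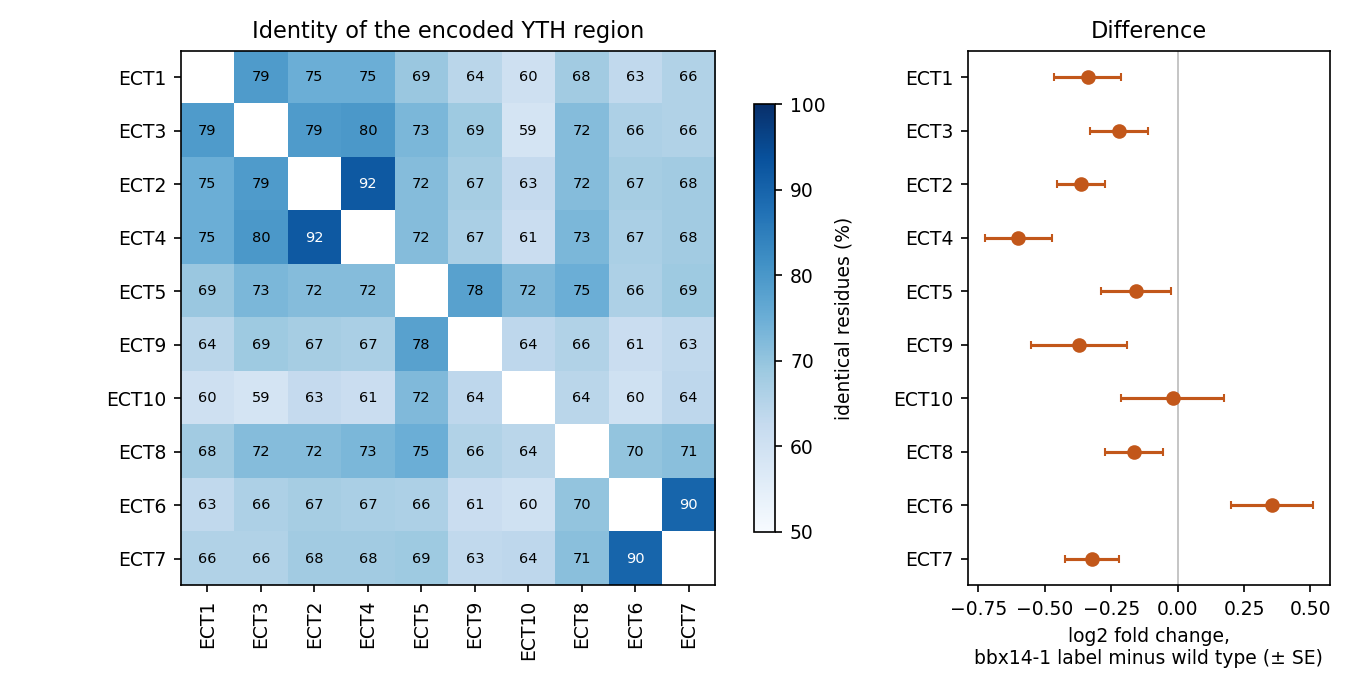
Left, percent of identical residues over the encoded YTH region for each pair of ECT genes. Right, log2 fold change (libraries labelled bbx14-1 minus wild type, ± SE, n = 3 against 3) of the same genes in the same order. ECT2 and ECT4 (92.0% identical) both lie below 0, and ECT6 and ECT7 (89.8% identical) lie on opposite sides of 0.

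The patterns most like those of the called members were sought among the 15035 genes that averaged 50 normalized counts or more, by the root mean square difference of log2 deviations over the 6 libraries. ECT2 itself deviated by 0.207 from its mean. The 3 nearest genes differed from it by 0.041 to 0.049: ALPHA DOX2, a fatty acid dioxygenase gene, NAD-ME2, a mitochondrial malic enzyme gene, and AT3G06530. For ECT4, which deviated by 0.315, the nearest were NIA1 (nitrate reductase), PDC2 (pyruvate decarboxylase) and BSM (a plastid mTERF protein), at 0.044 to 0.055. Their log2 fold changes were -0.59, -0.61 and -0.60, a closeness to ECT4 that their choice over the same 6 libraries fixes.

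Genes of the m6A system other than the 10 members were tested in the same fit. Of 31 genes in 6 lists, 29 passed the filter and 0 were called (limma, adjusted p under 0.05), 1 of them with an unadjusted p under 0.05. With voom on the recovered reads the count was also 0. Their median log2 fold change was -0.04, and 16 of 29 were negative. Groups did not overlap for 2 of the 29, CPSF30 and PAB8, both lower under the bbx14-1 label. Over all genes tested 4.65% were called, 16.7% had an unadjusted p under 0.05 by limma, and 21% had groups that did not overlap.

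Among the 3 other genes with a YTH domain, CPSF30, which encodes a polyadenylation factor, had 180.0, 178 and 173 normalized counts in wild type, against 145, 139.7 and 153 under the bbx14-1 label. The groups were apart, with a log2 fold change of -0.28 (standard error 0.17) that did not pass the test (limma, adjusted p = 0.427). ECT11, numbered next after the 10 members, had 110.2, 85.4 and 119 against 113, 98.9 and 115 (log2 fold change 0.06; limma, adjusted p = 0.924), with overlapping groups. AT4G11970, annotated as a YTH family protein, was at -0.18 (limma, adjusted p = 0.786).

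In the writer complex, 0 of 7 members were called. The catalytic subunit gene MTA had 301, 251 and 338 normalized counts in wild type, against 210.3, 227 and 281 under the bbx14-1 label (log2 fold change -0.31; limma, adjusted p = 0.318), with overlapping groups. EMB2016 (AT3G05680), the most abundant of the list in counts, was nearly level at -0.02 (limma, adjusted p = 0.947). AT5G01160, a RING/U-box protein gene, was the 1 gene with an unadjusted p under 0.05, at 389, 515 and 375 against 362, 269.8 and 379 (log2 fold change -0.34; limma, adjusted p = 0.237). FIP37 was at 0.27 (limma, adjusted p = 0.55). MTA, FIP37, PAB8, DIS2, AT4G11970, AT1G48980 and AT2G48080 were named after their values were seen.

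**Figure D5:**
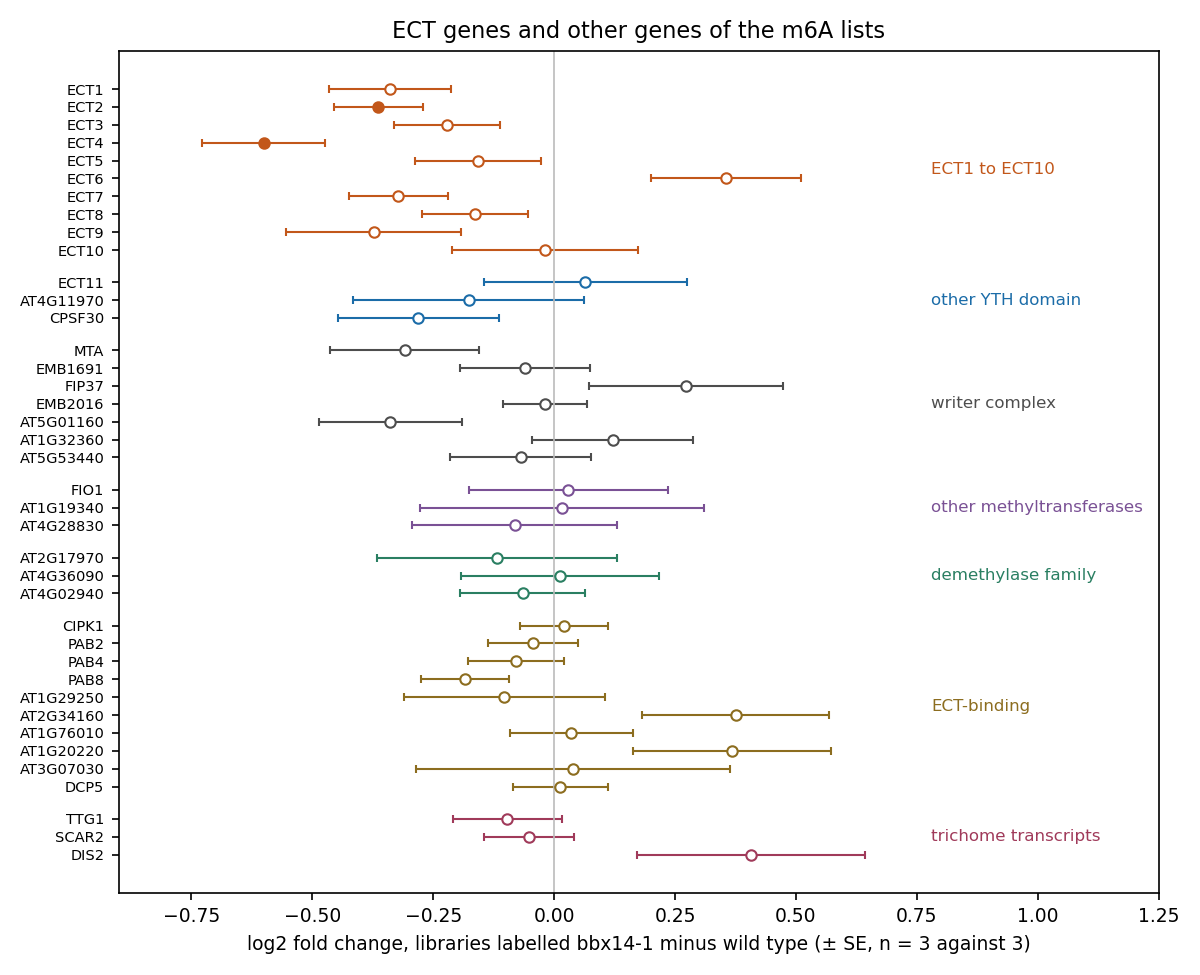
Log2 fold change (libraries labelled bbx14-1 minus wild type, ± SE, n = 3 against 3) of ECT1 to ECT10 and of 29 other genes in 6 lists of the m6A system, with filled symbols for called genes. ECT2 and ECT4 are the filled points, at -0.36 and -0.60, and the other lists lie on both sides of 0 between -0.34 and 0.41.

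None of 3 other methyltransferase genes was called, with FIO1 at 0.03 and AT4G28830 at -0.08 (limma, adjusted p = 0.967 and 0.902). The ALKBH demethylase list held 5 genes, of which 3 passed the filter and 0 were called. AT4G02940 had 355, 332 and 305 normalized counts in wild type, against 309, 316 and 320.1 under the bbx14-1 label (-0.07 on the log2 scale; limma, adjusted p = 0.868). AT4G36090 was level at 0.01 (limma, adjusted p = 0.986). AT1G48980 was at 0 in all 6 libraries, below the floor of 3 reads, and AT2G48080 did not exceed 13.6.

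Of 10 genes for proteins reported to bind ECT proteins 0 were called. The poly(A)-binding protein gene PAB2 was at -0.04 and the kinase gene CIPK1 at 0.02 (limma, adjusted p = 0.876 and 0.946). Transcripts for trichome branching that are reported targets of ECT2 were also not called, 0 of 3. SCAR2 was at -0.05, TTG1 at -0.10 and DIS2 at 0.41 (limma, adjusted p = 0.844, 0.738 and 0.410), with overlapping groups. A p above the threshold does not show that these genes were unchanged.

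The 250 bases upstream of each member's annotated start were searched on both strands for the G-box CACGTG and the evening element AAAATATCT. No member held a G-box, which 7.39% of 18331 such windows of tested genes hold. ECT6 held 1 evening element, 191 bases upstream of the start, where 2.51% of windows hold one. The windows of ECT4, ECT6 and ECT7 overlap a neighbouring gene. A match describes letters in a window and is not evidence of a site.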

How the data were processed

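RNA was sequenced from 3 wild-type and 3 bbx14-1 samples. Following the labels' protocols, total RNA was depleted of ribosomal RNA and made into directional libraries. The deposited values are normalized counts, which the authors named as such in the file's title. DESeq2, featureCounts, TopHat2 2.1.1, FastQC and Trimmomatic are listed in the submitters' processing notes, with build TAIR10. The sources used here do not give the annotation or the strand setting. Within each library all values (100%) were whole multiples of a single step to within 0.01, which gave the reads behind them.

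Groups were compared with limma 3.58.1 (R 4.3.3), with a variance trend, on log2 values after adding 1 to each normalized count. Genes averaging at least 10 entered, 19003 in all, and two-sided p-values were adjusted by Benjamini-Hochberg. Fold changes on that scale understate changes of low genes. The fit was tested on simulated data. Levels per kb used the union of annotated exons in TAIR10.1, to which all members matched, and neighbours in the order were compared by an exact sign-flip permutation test. Alternatives were another pseudocount, filter or scaling, no variance trend, a replicate block, each library left out, other lengths, and voom on recovered reads, which was added after the data were seen.

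The members and lists were chosen with earlier results of these data known. From each list every called gene was named, otherwise the 2 most abundant, and genes named outside this rule are marked.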

Additional observations from a re-analysis of the deposited data

How the results depend on the processing

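The direction of ECT1 to ECT9 was kept under all 15 alternatives, and ECT4 stayed called in 14 of them. The count of members called lower was 2 and became 0 without the variance trend, where 28 genes in all were called (13 higher, 15 lower) in place of 883. With each library left out it ran from 1 to 2, and members called higher from 0 to 1, while all calls ran from 529 (without wild type replicate 1; 577 without wild type replicate 3) to 762, higher ones from 282 to 437 and lower ones from 247 to 406. ECT10 ranged from -0.13 to 0.11 with a library left out, and so changed sign. The same holds for PAB2 (-0.14 to 0.014), CIPK1 (-0.052 to 0.085), AT4G36090 (-0.18 to 0.13), ECT11 (-0.075 to 0.16), FIO1 (-0.11 to 0.19) and AT4G28830 (-0.26 to 0.047), none of them called. The count of neighbouring pairs that kept their order in every library was 5 with exon length and ran from 4 (coding length) to 6 (1 library left out). Same-numbered libraries did not deviate together (correlations of 0.042, 0.017 and -0.030), so the numbers were not treated as pairs, and with the replicate block 915 genes and the same count of 2 members were called. The cause of the lost calls was not tested. At 3 libraries a group, the standard error of 0.09 to 0.19 on the log2 scale limits what can be called among members.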
